A study of Gallus gallus with 6 samples.

Results

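The genes described here copy DNA and supply its building blocks and were measured by RNA-seq in breeder hens, in the mucosa that lines the jejunum. A list of 45 such genes was chosen by symbol, and 43 of them were found among the 15656 genes with an FPKM (a read abundance corrected for gene length and library depth); MCM7 and POLD1 were not analysed here. Of the 43, 41 averaged an FPKM of 1 or more across libraries and were tested, while CDC6 and MCM10 stayed below it. Hens of the breed Leuang Hang Kao form the heat-adapted group, and SUT hens form the heat-sensitive one. All hens were 28 weeks old and had been held at 36 °C for 6 h before sampling, so no library comes from unheated hens. Each group has 3 libraries, and each library is a pool of RNA from 4 hens, so that 12 of the 25 hens housed per group were sampled. The design text speaks of random assignment to the groups, whereas the labels give each group a breed of its own. If the labels hold, group and breed cannot be told apart. The labels name no other treatment.

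DNA is copied from origins. The origin recognition complex marks them, CDC6 and CDT1 help it to load the ring-shaped MCM helicase in G1, and CDC45, the GINS complex and MCM10 turn the loaded ring into an active helicase at the start of S phase. Primase and polymerase alpha then lay down primers, the loader RFC places the sliding clamp PCNA, and the polymerases delta and epsilon extend the strands with deoxynucleotides made by ribonucleotide reductase and thymidylate synthase. In the intestine these genes are used mainly by the dividing cells of the crypts, and also by dividing lymphocytes of the mucosa, while the absorptive cells of the villi have left the cell cycle. E2F transcription factors are known to switch on many of them together before S phase.

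The read counts of the 6 libraries summed to between 10829957 and 13070796. Of 16 enterocyte markers, 15 were in the table and all 15 were tested, with a summed FPKM of 25200 to 34380 in heat-adapted libraries and 15920 to 30160 in heat-sensitive libraries. Most of that sum is FABP1 and FABP2, named after their values were seen, and both overlapped between the groups. The read counts do not stand in the row order of the gene symbols (Spearman's rho of -0.00482 between the row means of FPKM and read count), so every value below is an FPKM. For 74 genes at an FPKM of 20 or more, none of them a gene of this list, a read-count row was picked by its heat-sensitive values. The log2 ratio of read count to FPKM was taken minus each gene's mean of that ratio over the heat-sensitive columns. Its SD over genes was 0.815 to 1.04 in the heat-adapted columns. In the heat-sensitive columns it was 0.00105 to 0.00177, which follows from how the rows were picked. For these 74 genes, heat-adapted FPKM and read counts were not the same values up to a factor. Wrongly picked rows would also give such a spread, and their share was not measured. A search without picked rows looked for ratios shared by many pairs of a gene, at an FPKM of 20 or more, and a read-count row. Its highest peak stood 29.2 SD above its surroundings in heat-sensitive columns and 4.21 SD in heat-adapted columns. Over all orders of the heat-adapted columns the peak reached at most 4.46 SD. Which of the 2 measures belongs to the labelled heat-adapted libraries could not be settled. All differences below are those of FPKM.

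Replication genes were lower in the heat-adapted libraries across nearly the whole list. The log2 difference of log2(FPKM + 1), heat-adapted minus heat-sensitive, was below 0 for 39 of the 41 tested genes, against 58.3% of the 11587 genes tested in all. Its median was -0.42 for the replication genes and -0.06 for all genes tested. It was lowest for RRM2, at -1.13, and highest for RFC5, at 0.19. No gene of the list passed an adjusted p of 0.05 in limma over all genes tested, where 11 genes did (0.0949%), and the lowest adjusted p among the 41 was 0.0701. At an unadjusted p below 0.05, 23 of the 41 (56.1%) were lower and 0 higher, against 10.9% of all genes tested that were lower. In 24 of the 41 (58.5%) every heat-adapted library was below every heat-sensitive library, against 12.9% of all genes tested. The list was chosen with earlier results of these data known, so these shares give no independent support. After rescaling to TPM, which moved the median of all genes to 0.05, 37 of the 41 were below 0 and 14 were lower at an unadjusted p below 0.05 (6.05% of all genes tested). CCNE2 reached the filter only through its heat-sensitive values. With no filter on low values, 41 of 43 were lower and 25 did not overlap (58.7% and 11.9% of all genes in that fit). In these bulk samples, fewer cells in S phase and less of each transcript per cell cannot be told apart.

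**Figure D1:**
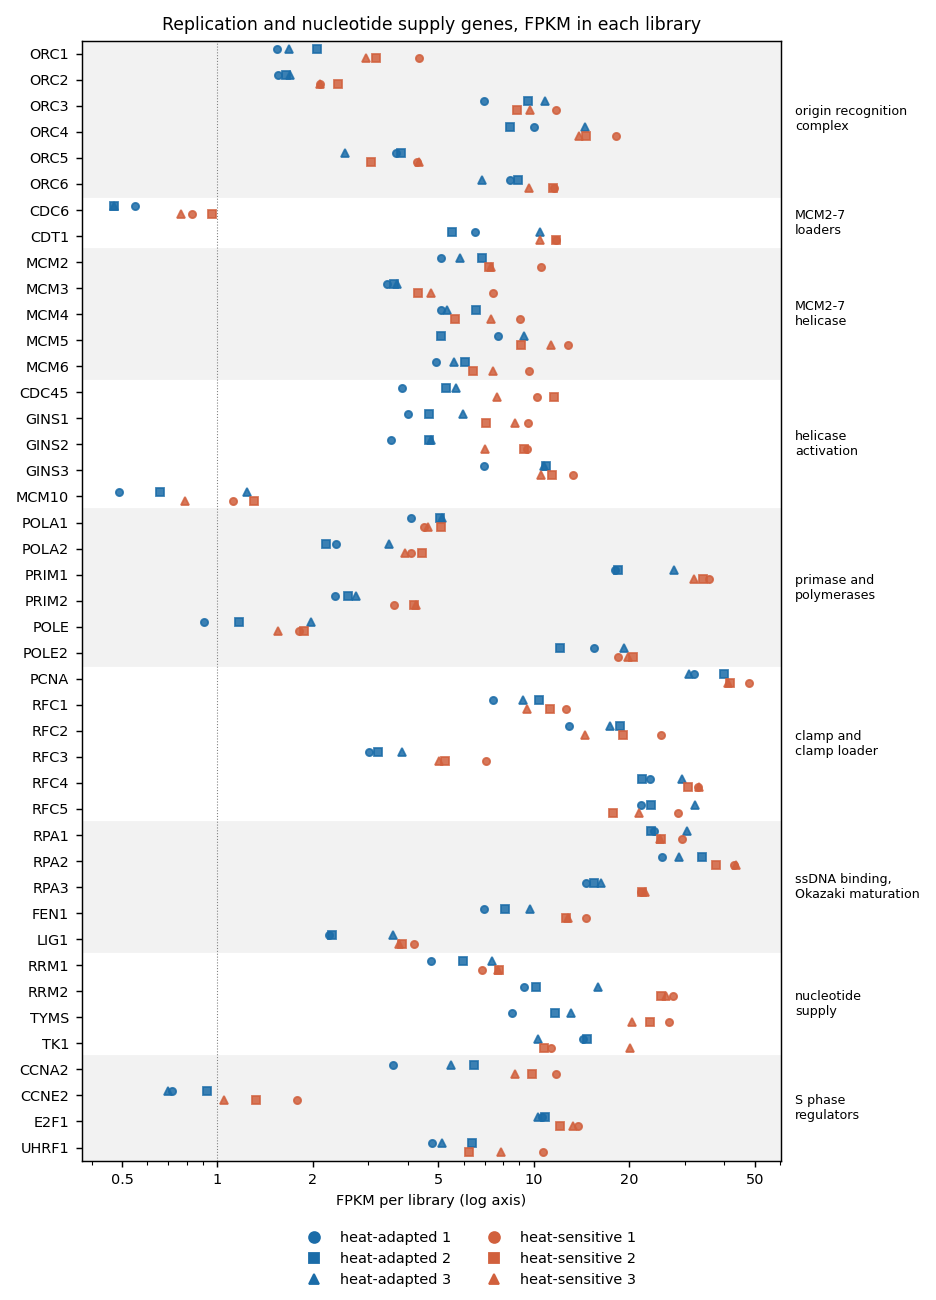
FPKM of the 43 genes in each library on a log axis, grouped by role; blue symbols are heat-adapted and orange symbols heat-sensitive libraries, and the dotted line marks an FPKM of 1. The blue symbols lie left of all orange symbols in 25 of the 43 genes, among them RRM2, TYMS, CDC45 and GINS2. Of all genes in the fit with no filter on low values, 11.9% do so. Blue and orange symbols are mixed in genes such as POLA1, RPA1 and TK1.

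Of the list, RRM2 and TYMS of deoxynucleotide supply had the lowest log2 differences. RRM2, the small subunit of ribonucleotide reductase, whose level is known to peak in S phase, had an FPKM of 9.31, 10.19 and 15.99 in heat-adapted libraries, against 27.47, 25.3 and 26.16 in heat-sensitive libraries. The highest heat-adapted library lay well below the lowest heat-sensitive one, and the heat-sensitive libraries were close to each other. The means were 11.8 ± 3.63 in heat-adapted libraries and 26.3 ± 1.09 in heat-sensitive libraries (SD, n = 3; log2 difference -1.13, SE 0.19, adjusted p = 0.0701). TYMS, thymidylate synthase, which makes the thymidine nucleotide from its uridine form, was at 8.57, 11.71 and 13.11 in heat-adapted libraries, against 26.81, 23.31 and 20.43 in heat-sensitive libraries, again without overlap. Its means were 11.1 ± 2.32 in heat-adapted libraries and 23.5 ± 3.2 in heat-sensitive libraries (SD, n = 3; log2 difference -1.03, SE 0.18, adjusted p = 0.0701). TYMS overlaps the gene YES1 in the RefSeq annotation, so its reads may be shared with that gene.

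The partners of these enzymes had smaller log2 differences, and the contrast between partners was not tested. RRM1, the large subunit of the reductase, was at 4.74, 5.96 and 7.36 in heat-adapted libraries, against 6.84, 7.76 and 7.69 in heat-sensitive libraries, and the groups overlapped (log2 difference -0.28, SE 0.18, adjusted p = 0.433). TK1, thymidine kinase, which salvages thymidine, was at 14.33, 14.77 and 10.31 in heat-adapted libraries, against 11.35, 10.79 and 20.21 in heat-sensitive libraries. A single heat-sensitive library, replicate 3, lay above the rest, and the groups were otherwise mixed (log2 difference -0.06, SE 0.24, adjusted p = 0.923). Without that library the log2 difference of TK1 was 0.21, and it was also above 0 with TPM or median-of-ratios scaling.

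Because partner genes were measured in the same library, their FPKM ratio is free of the scaling between libraries. RRM2 over RRM1 was 1.96, 1.71 and 2.17 in heat-adapted libraries, against 4.02, 3.26 and 3.4 in heat-sensitive libraries. The small subunit stood lower relative to the large one in every heat-adapted library. TYMS over TK1 was 0.598, 0.793 and 1.27 in heat-adapted libraries, against 2.36, 2.16 and 1.01 in heat-sensitive libraries, and here the groups overlapped through heat-sensitive replicate 3. Such ratios were formed for 10 pairs chosen after their values were seen, so they carry no test. Groups did not overlap in RRM2 over RRM1, POLA2 over POLA1, RPA2 over RPA1 and GINS2 over GINS3. In all other pairs they overlapped.

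**Figure D2:**
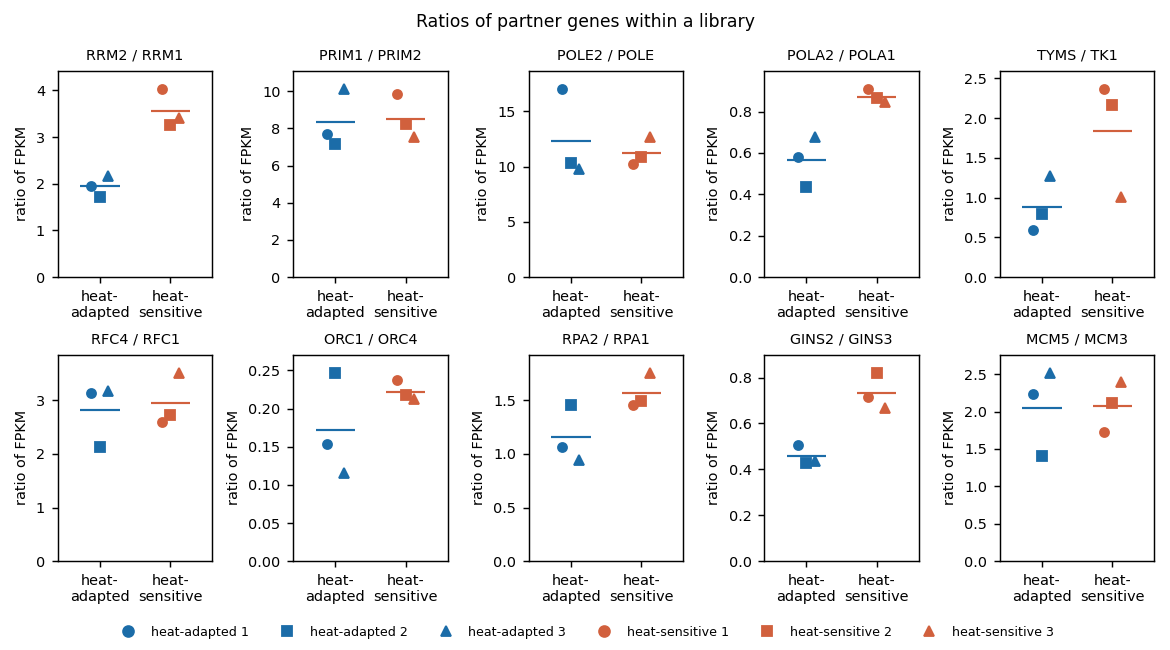
Ratio of the FPKM of partner genes within each library for 10 pairs, with heat-adapted libraries (blue) left of heat-sensitive libraries (orange); horizontal bars are group means and each axis starts at 0. RRM2 over RRM1 averages 1.95 in heat-adapted libraries and 3.56 in heat-sensitive libraries, while PRIM1 over PRIM2 averages 8.34 in heat-adapted libraries and 8.53 in heat-sensitive libraries.

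Among the genes that mark and license origins, ORC1 had the lowest log2 difference of its complex. ORC1, the subunit whose level is known to follow the cell cycle in mammals, was at 1.54, 2.07 and 1.69 in heat-adapted libraries, against 4.33, 3.18 and 2.95 in heat-sensitive libraries. The groups did not overlap (log2 difference -0.69, SE 0.19, adjusted p = 0.144). ORC6 was at 8.43, 8.93 and 6.85 in heat-adapted libraries, against 11.57, 11.54 and 9.67 in heat-sensitive libraries, without overlap (log2 difference -0.40, adjusted p = 0.241). ORC2 also did not overlap, at 1.64 ± 0.0709 in heat-adapted libraries and 2.21 ± 0.167 in heat-sensitive libraries (SD, n = 3; log2 difference -0.28). The remaining subunits ORC3, ORC4 and ORC5 overlapped between the groups, with log2 differences of -0.14, -0.49 and -0.18. Differences between subunits were not tested. The most abundant subunit per length was ORC4, at 11 ± 3.16 in heat-adapted libraries and 15.6 ± 2.33 in heat-sensitive libraries (SD, n = 3), and the least abundant was ORC2.

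The loaders of the helicase differed in level. CDT1 was at 6.5, 5.53 and 10.49 in heat-adapted libraries, against 11.74, 11.79 and 10.48 in heat-sensitive libraries. Heat-adapted replicate 3 reached the lowest heat-sensitive library, so the groups touched (log2 difference -0.58, SE 0.21, adjusted p = 0.219). CDC6, the partner of CDT1, was below an FPKM of 1 in all libraries, at 0.55, 0.47 and 0.47 in heat-adapted libraries and 0.83, 0.96 and 0.77 in heat-sensitive libraries. Its groups did not overlap, and with no filter on low values its log2 difference was -0.31 (SE 0.09, adjusted p = 0.231).

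Of the 6 helicase subunits MCM2 to MCM7, 5 were measured, and their log2 differences lay between -0.55 (MCM5) and -0.31 (MCM4). MCM5 was at 7.7, 5.08 and 9.3 in heat-adapted libraries, against 12.82, 9.09 and 11.33 in heat-sensitive libraries, with a small overlap. MCM2 was at 5.11, 6.84 and 5.84 in heat-adapted libraries, against 10.52, 7.21 and 7.31 in heat-sensitive libraries (log2 difference -0.42, SE 0.19, adjusted p = 0.28). Groups did not overlap in MCM2, MCM3 and MCM6 and did so in MCM4 and MCM5. All 5 subunits had their highest value in heat-sensitive replicate 1. MCM3 shows how far that library stood out, with 3.43, 3.63 and 3.71 in heat-adapted libraries, against 7.42, 4.3 and 4.74 in heat-sensitive libraries. Without that library the median log2 difference of the 5 subunits was -0.27, against -0.43 with it. Per length, MCM5 was the most abundant subunit and MCM3 the least in both groups, with means of 7.36 and 3.59 in heat-adapted libraries and of 11.1 and 5.49 in heat-sensitive libraries.

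Among the factors of the list that activate the loaded helicase, CDC45 and 2 GINS subunits separated the groups. GINS4, a subunit outside the list that was named after its values were seen, overlapped between the groups (log2 difference 0.05). CDC45 was at 3.83, 5.28 and 5.7 in heat-adapted libraries, against 10.22, 11.6 and 7.66 in heat-sensitive libraries (log2 difference -0.86, SE 0.20, adjusted p = 0.108). GINS2, a subunit of the GINS complex, was at 3.53, 4.66 and 4.74 in heat-adapted libraries, against 9.52, 9.33 and 7.03 in heat-sensitive libraries (log2 difference -0.86, SE 0.18, adjusted p = 0.0923). Every heat-adapted library was below every heat-sensitive one in both genes. GINS1 followed at 4, 4.68 and 5.99 in heat-adapted libraries, against 9.57, 7.07 and 8.75 in heat-sensitive libraries, also without overlap (log2 difference -0.69, adjusted p = 0.138). GINS3 was at 6.98, 10.93 and 10.81 in heat-adapted libraries, against 13.29, 11.41 and 10.55 in heat-sensitive libraries (log2 difference -0.29, adjusted p = 0.451). Only heat-adapted replicate 1 lay clearly below the others in GINS3. GINS2 over GINS3 was 0.506, 0.426 and 0.438 in heat-adapted libraries, against 0.716, 0.818 and 0.666 in heat-sensitive libraries. MCM10, which helps to start unwinding, was low and mixed, at 0.49, 0.66 and 1.24 in heat-adapted libraries, against 1.12, 1.31 and 0.79 in heat-sensitive libraries (log2 difference -0.22 with no filter on low values, adjusted p = 0.596).

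Both primase subunits and POLA2 separated the groups, and POLA1, POLE and POLE2 overlapped. Differences between these genes were not tested. PRIM1, the catalytic primase subunit, was at 18.11, 18.49 and 27.78 in heat-adapted libraries, against 35.72, 34.32 and 32.04 in heat-sensitive libraries (log2 difference -0.67, SE 0.18, adjusted p = 0.136). PRIM2, its regulatory partner, was at 2.35, 2.58 and 2.74 in heat-adapted libraries, against 3.63, 4.17 and 4.26 in heat-sensitive libraries (log2 difference -0.50, SE 0.16, adjusted p = 0.189). Neither gene overlapped between the groups. POLA1, the catalytic subunit of polymerase alpha, was at 4.09, 5.07 and 5.13 in heat-adapted libraries, against 4.5, 5.11 and 4.63 in heat-sensitive libraries, a difference near 0 whose sign turned with the pseudocount and with the libraries used. POLA2, the accessory subunit of polymerase alpha, was at 2.37, 2.21 and 3.48 in heat-adapted libraries, against 4.08, 4.43 and 3.91 in heat-sensitive libraries, without overlap (log2 difference -0.49, SE 0.19, adjusted p = 0.228). POLA2 over POLA1 was 0.579, 0.436 and 0.678 in heat-adapted libraries, against 0.907, 0.867 and 0.844 in heat-sensitive libraries. The subunits of polymerase epsilon, which extends the leading strand, overlapped between the groups, with log2 differences of -0.25 for the catalytic POLE and -0.33 for POLE2. Per length POLE was the least abundant of these genes, at 1.35 ± 0.558 in heat-adapted libraries and 1.75 ± 0.168 in heat-sensitive libraries (SD, n = 3), while POLE2 was at 15.6 ± 3.64 in heat-adapted libraries and 19.6 ± 1.07 in heat-sensitive libraries. The ratio of POLE2 to POLE reached 17 in heat-adapted replicate 1 and otherwise lay between 9.78 and 12.7.

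PCNA, the sliding clamp, was the most abundant gene of the list per length, with an FPKM of 32.18, 39.99 and 31.08 in heat-adapted libraries, against 48.1, 41.83 and 41.24 in heat-sensitive libraries. The groups lay close together without overlapping (log2 difference -0.34, SE 0.15, adjusted p = 0.263). Of the 5 subunits of the clamp loader RFC, 4 had a log2 difference below 0. RFC3 was at 3.02, 3.23 and 3.84 in heat-adapted libraries, against 7.06, 5.25 and 5.03 in heat-sensitive libraries (log2 difference -0.63, SE 0.18, adjusted p = 0.155), and RFC4 also did not overlap (log2 difference -0.37). RFC1 and RFC2 overlapped, with log2 differences of -0.28 and -0.23. RFC5 and POLA1 were the tested genes that were not below 0. RFC5 was at 21.8, 23.41 and 32.46 in heat-adapted libraries, against 28.6, 17.85 and 21.54 in heat-sensitive libraries, and heat-adapted replicate 3 and heat-sensitive replicate 2 were its highest and lowest libraries (log2 difference 0.19, SE 0.21, adjusted p = 0.664). Without these libraries in turn the log2 difference of RFC5 was 0.02 and 0.04.

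In RPA, which coats single-stranded DNA, the smaller subunits separated the groups and the large one overlapped. RPA3 was at 14.64, 15.46 and 16.3 in heat-adapted libraries, against 21.8, 21.98 and 22.41 in heat-sensitive libraries. The replicates of RPA3 were tight in both groups, and its standard error was the smallest of the 41 genes (log2 difference -0.49, SE 0.12, adjusted p = 0.126). RPA2 was at 25.47, 34.15 and 28.75 in heat-adapted libraries, against 43.1, 37.78 and 43.7 in heat-sensitive libraries, without overlap (log2 difference -0.49, SE 0.15, adjusted p = 0.166). RPA1, the large subunit, was at 23.99, 23.42 and 30.5 in heat-adapted libraries, against 29.51, 25.33 and 25.03 in heat-sensitive libraries. The log2 difference of -0.04 became 0.08 with TPM and 0.04 with median-of-ratios scaling. FEN1, which trims the flaps of Okazaki fragments, was at 6.99, 8.12 and 9.72 in heat-adapted libraries, against 14.67, 12.66 and 12.82 in heat-sensitive libraries (log2 difference -0.64, SE 0.16, adjusted p = 0.119). LIG1, which seals the fragments, averaged 2.72 ± 0.748 in heat-adapted libraries and 3.92 ± 0.238 in heat-sensitive libraries (SD, n = 3; log2 difference -0.42, adjusted p = 0.287), and neither gene overlapped.

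The 4 regulators of S phase on the list had log2 differences below 0. Cyclin A2 (CCNA2), which drives S phase and entry into mitosis, was at 3.59, 6.46 and 5.47 in heat-adapted libraries, against 11.76, 9.9 and 8.72 in heat-sensitive libraries (log2 difference -0.87, SE 0.21, adjusted p = 0.112). Its groups lay apart, and heat-adapted replicate 1 was the lowest. E2F1, an activating E2F factor, was at 10.6, 10.89 and 10.29 in heat-adapted libraries, against 13.83, 12.1 and 13.28 in heat-sensitive libraries. That difference was small but without overlap (log2 difference -0.28, SE 0.13, adjusted p = 0.303). Cyclin E2 (CCNE2) was near the filter, at 0.72, 0.93 and 0.7 in heat-adapted libraries, against 1.78, 1.32 and 1.05 in heat-sensitive libraries, without overlap (log2 difference -0.41, adjusted p = 0.302). UHRF1, which guides maintenance of DNA methylation at the fork, was at 4.78, 6.4 and 5.13 in heat-adapted libraries, against 10.68, 6.23 and 7.87 in heat-sensitive libraries, and the groups overlapped (log2 difference -0.50, SE 0.21, adjusted p = 0.251).

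**Figure D3:**
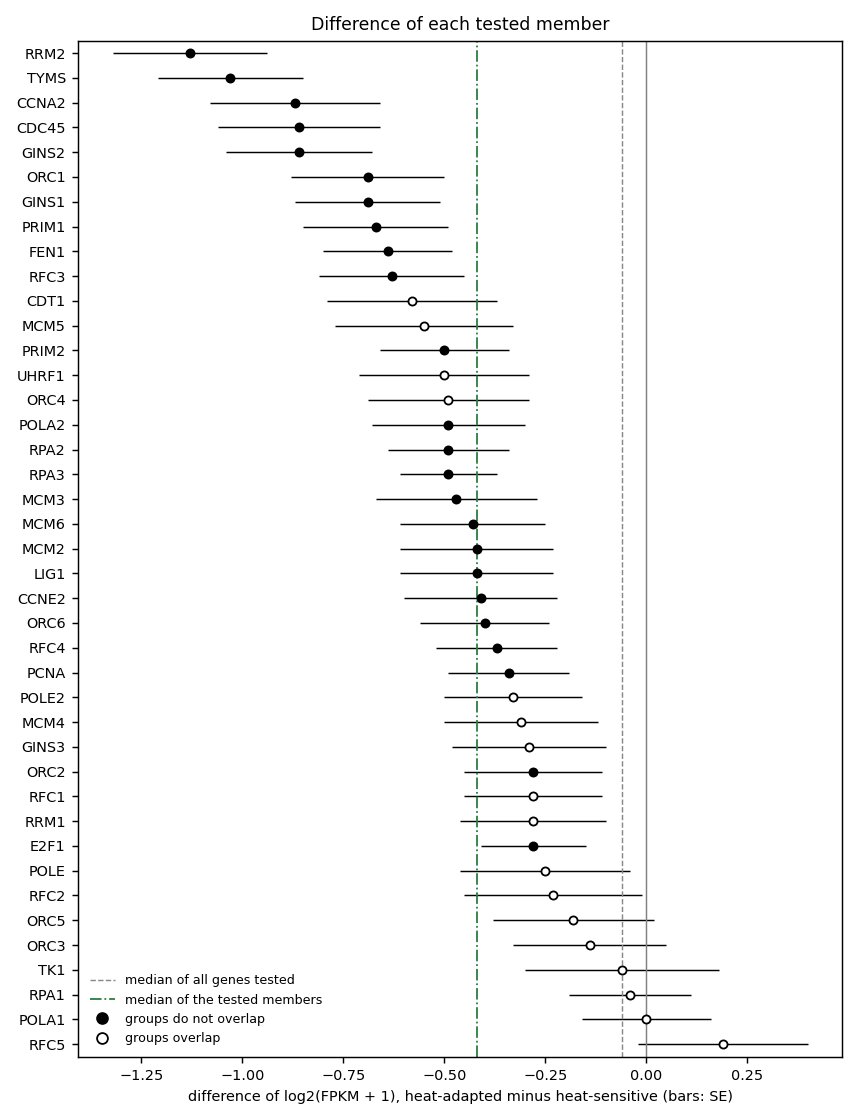
Log2 difference, heat-adapted minus heat-sensitive, of the 41 tested genes with its standard error, sorted; filled points mark genes whose groups do not overlap, the green line is the median of the 41 (-0.42) and the dashed grey line the median of all genes tested (-0.06). RRM2 and TYMS lie lowest, at -1.13 and -1.03, and RFC5 highest, at 0.19.

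Grouped by role, the median log2 difference was -0.77 for the 4 tested helicase activators, without GINS4, and -0.65 for the 4 nucleotide enzymes. It was -0.49 for the 5 genes of single-strand binding and fragment maturation, -0.46 for the 4 regulators and -0.43 for the 5 MCM subunits. The medians of primase and polymerases, of the origin recognition complex and of the clamp and its loader were -0.41, -0.34 and -0.31, over 6 genes each. These roles hold few genes, and the differences between them were not tested.

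The libraries did not contribute equally. Heat-adapted replicate 1 had the lowest value of the 6 libraries in 27 of the 41 genes, and heat-sensitive replicate 1 the highest in 25. Median-of-ratios scaling factors, from genes above 0 in all 6 libraries, followed the same order at both ends. They were 0.9017 in heat-adapted replicate 1, the lowest, and 1.0844 in heat-sensitive replicate 1, the highest. The list's level in a library, the median of its genes after centring each on its mean over the 6 libraries, was -0.38, -0.15 and -0.12 in heat-adapted replicates 1, 2 and 3, against 0.32, 0.17 and 0.17 in heat-sensitive replicates 1, 2 and 3. The levels of the groups did not overlap. Of the 41 genes, 15 were lower at an unadjusted p below 0.05 without heat-adapted replicate 1 (5.09% of all genes tested) and 13 without heat-sensitive replicate 1 (6.95%), and 24 (13.9% of all genes tested) and 26 (15.5%) did not overlap. Without heat-adapted replicate 3, RRM2 (log2 difference -1.35, adjusted p = 0.016) and PRIM1 (-0.86, adjusted p = 0.045) passed the threshold and were lower, with 64 genes called in all.

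Other genes of the pathway, from lists chosen by function, had medians of the same sign. These lists were chosen with earlier results of these data known, so they give no independent support. Their counts stand beside 58.3% of all genes tested that were lower. At an unadjusted p below 0.05, 10.9% of all genes tested were lower, and 12.9% were lower without overlap. Of 26 tested fork and origin factors outside the list, 22 were lower, 8 lower and 0 higher at an unadjusted p below 0.05, and 11 did not overlap (median -0.27, and -0.17 with TPM). Among the 8 and the 11 is MTBP, which reached the filter only through its heat-sensitive values. The kinase CDC7, which together with DBF4 triggers origin firing, averaged 2.29 ± 0.464 in heat-adapted libraries and 5.2 ± 0.422 in heat-sensitive libraries (SD, n = 3; log2 difference -0.92, adjusted p = 0.079). DSCC1 and CHTF8, which belong to an alternative clamp loader, had log2 differences of -0.98 and -0.67, and the topoisomerase TOP2A, which untangles replicated DNA, one of -0.90, all without overlap. CHTF18, another subunit of that loader, which was named after its values were seen, averaged 12.9 in both groups (log2 difference -0.01, adjusted p = 0.991). The other GINS subunit, GINS4, which was named after its values were seen, averaged 32 ± 5.15 in heat-adapted libraries and 30.7 ± 1.32 in heat-sensitive libraries (SD, n = 3; log2 difference 0.05, adjusted p = 0.895).

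Nucleotide synthesis beyond the reductase and TYMS was mixed. Of 30 tested genes, 22 were lower, 8 lower and 1 higher at an unadjusted p below 0.05 (median -0.27, and -0.16 with TPM or without heat-sensitive replicate 1). The lower genes with the smallest p lay in the supply of thymidine precursors and in purine synthesis. DUT, which makes dUMP for TYMS, averaged 9.59 in heat-adapted libraries and 18.7 in heat-sensitive libraries (log2 difference -0.93, adjusted p = 0.117). DCTD, which deaminates dCMP to dUMP, averaged 10.7 in heat-adapted libraries and 19.4 in heat-sensitive libraries (log2 difference -0.80, adjusted p = 0.101). The purine enzymes PAICS and PPAT had log2 differences of -0.87 and -0.69. None of these 4 genes overlapped between the groups. RRM2B, the small reductase subunit that is known to serve cells outside S phase and was named after its values were seen, was the gene higher at an unadjusted p below 0.05. It averaged 19.2 in heat-adapted libraries and 14.9 in heat-sensitive libraries without overlap (log2 difference 0.35, adjusted p = 0.256), opposite in sign to RRM2.

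Genes that restore chromatin behind the fork were lower in 13 of 13 (median -0.32, -0.21 with TPM and -0.20 without heat-adapted replicate 1), 6 of them at an unadjusted p below 0.05 with 0 higher. They were led by SLBP, which binds histone messenger RNA, and by CDCA7 (log2 differences -0.80 and -0.91). G1 to S control genes were lower in 24 of 29 (median -0.26, and -0.17 with TPM), 11 of them at an unadjusted p below 0.05 with 0 higher. MYCN, one of the 24, reached the filter only through its heat-sensitive values. Those with the smallest p were CDKN2C, E2F8, TFDP2 and FBXO5, at log2 differences of -0.76, -0.61, -0.80 and -0.69. Cyclin E1 (CCNE1), the relative of CCNE2, averaged 12.9 in heat-adapted libraries and 10.6 in heat-sensitive libraries (log2 difference 0.26, adjusted p = 0.451). The cell cycle inhibitor CDKN1A was at 20.3, 10.01 and 10.38 in heat-adapted libraries, against 7.82, 6 and 13.82 in heat-sensitive libraries (log2 difference 0.51, adjusted p = 0.447), so the groups overlapped and heat-adapted replicate 1 stood above the rest. The inhibitors CDKN2A and CDKN2B had log2 differences of -0.49 and -0.74 without overlap (adjusted p = 0.196 and 0.183). These 4 genes were named after their values were seen. Of the 18 tested genes of excision repair and end joining, 10 were lower, against 58.3% of all genes tested. Their median was -0.02 (0.08 with TPM), and UNG, which removes uracil from DNA, was the lowest of them (-0.80, adjusted p = 0.176).

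Mitosis and spindle genes, which act after replication, were lower in 33 of 33, with a median log2 difference of -0.93. At an unadjusted p below 0.05, 30 were lower (10.9% of all genes tested), and 30 did not overlap (12.9%). The level of that list was -0.79, -0.39 and -0.20 in heat-adapted replicates 1, 2 and 3, against 0.52, 0.56 and 0.23 in heat-sensitive replicates 1, 2 and 3. Replication genes spanned a smaller interval between the group means of their levels (-0.22 and 0.22, against -0.46 and 0.44 for mitosis), and this difference between the lists was not tested.

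**Figure D4:**
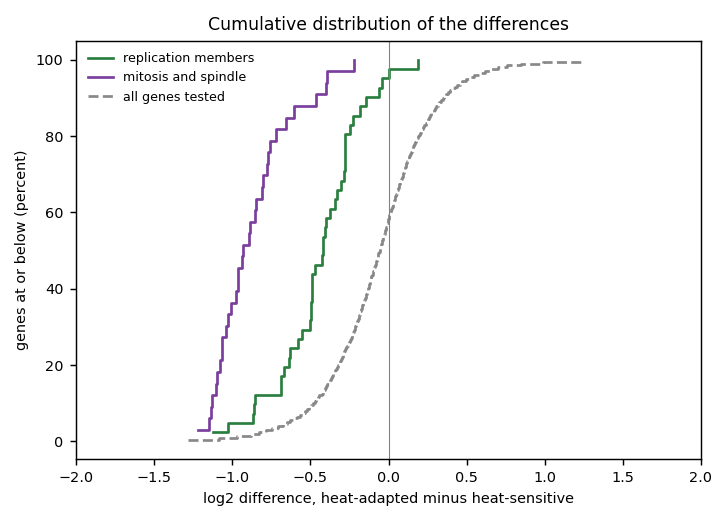
Cumulative percent of genes at or below each log2 difference, heat-adapted minus heat-sensitive, for the 41 replication genes (green), the 33 mitosis and spindle genes (purple) and all genes tested (dashed). The replication curve lies between the others, with medians of -0.42 for replication, -0.93 for mitosis and -0.06 for all genes.

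In the lists of cell type markers, no gene passed the adjusted threshold, and differences between the lists were not tested. Their counts of lower genes stand beside 58.3% of all genes tested that were lower (43.1% with TPM). Intestinal stem cell markers were lower in 11 of 14 tested genes (median -0.16, and -0.33 or 0.04 when heat-sensitive replicate 3 or 2 was left out), and their levels overlapped between the groups. HOPX, of the smallest p in that list, averaged 30.79 in heat-adapted libraries and 50.55 in heat-sensitive libraries. Its groups did not overlap (log2 difference -0.70, adjusted p = 0.104), while 3 of the 14 genes were higher. LGR5, which marks crypt base stem cells and was named after its values were seen, averaged 3.94 in heat-adapted libraries and 4.45 in heat-sensitive libraries (log2 difference -0.09). The summed FPKM of the stem cell markers was 272.7 to 361.2 in heat-adapted libraries and 333.9 to 553.4 in heat-sensitive libraries. Most of that sum is OLFM4, which overlapped between the groups. Enterocyte markers were higher in 13 of 15 (median 0.40, and 0.21 without heat-sensitive replicate 2). Their levels were 0.03 to 0.36 in heat-adapted libraries and -0.41 to 0.01 in heat-sensitive libraries, narrowly without overlap. Of the 15, 4 were higher without overlap and 5 were higher at an unadjusted p below 0.05. Of the 11587 genes tested, 1043 and 826 were. The sucrase-isomaltase gene SI averaged 411 ± 139 in heat-adapted libraries and 242 ± 40 in heat-sensitive libraries (SD, n = 3; log2 difference 0.72, adjusted p = 0.204). The 2 lower genes, named after their values were seen, were ANPEP (log2 difference -0.17) and CDX1, whose difference was near 0. B cell and germinal centre markers were lower in 11 of 12 (median -0.56, and -0.21 without heat-sensitive replicate 1). Their levels were -0.41 to -0.10 in heat-adapted libraries and -0.06 to 0.64 in heat-sensitive libraries, narrowly without overlap. Of the 12, 5 were lower without overlap and 4 were lower at an unadjusted p below 0.05 (12.9% and 10.9% of all genes tested). Their summed FPKM was 2251 to 2580 in heat-adapted libraries and 3453 to 4460 in heat-sensitive libraries. Most of that sum is JCHAIN, which joins secreted antibodies and marks plasma cells, at 2147 to 2469 in heat-adapted libraries and 3336 to 4278 in heat-sensitive libraries. TNFRSF13C and CXCR5, among the 11, reached the filter only through their heat-sensitive values, as did CD28 of the T cell markers and FLT4 of the endothelial markers below. Heat-sensitive replicate 1, where replication genes were highest, also held the highest level of B cell markers (0.64, with 0.01 and -0.06 in heat-sensitive replicates 3 and 2). Its levels of T cell markers (0.35) and of excision repair and end joining genes (0.16) were the highest of the libraries as well.

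T cell markers were lower in 10 of 12 (median -0.28, and -0.17 or -0.13 when replicate 1 of the heat-adapted or of the heat-sensitive group was left out), with summed FPKM of 573.5 to 763.5 in heat-adapted libraries and 566.9 to 927.4 in heat-sensitive libraries. Most of that sum is CD3D, named after its values were seen, which overlapped between the groups. Smooth muscle, fibroblast and endothelial markers were lower in 12 of 12, 11 of 11 and 10 of 10 (medians -0.98, -0.39 and -0.29). Of these genes 5, 1 and 1 did not overlap, against 12.9% of all genes tested. Levels overlapped between the groups for T cell markers and for each of these lists. Heat-adapted replicate 1, where replication genes were lowest, also held the lowest levels of these lists, at -1.36, -0.50 and -0.51. The same library was lowest too for stem cell, B cell, T cell and repair genes (-0.31, -0.41, -0.31 and -0.12). Its level of enterocyte markers was the highest (0.36). Without this library the medians of smooth muscle and endothelium were -0.51 and -0.11. Leaving out heat-sensitive replicate 2 gave a fibroblast median of -0.23. Leaving out heat-sensitive replicate 3 gave medians of -0.59 for fibroblasts and -0.49 for endothelium. The summed FPKM of smooth muscle, fibroblast and endothelial markers was 297.6 to 637.5, 234.1 to 359.9 and 40.46 to 75.03 in heat-adapted libraries, against 615.7 to 1227, 290.8 to 584.3 and 56.32 to 92.21 in heat-sensitive libraries. No marker of these lists that was in the table was listed at 0 in all 6 libraries. Of the hepatocyte markers, 4 were tested, and their levels overlapped between the groups. Their median was 0.62, but 0.11 without heat-adapted replicate 2, where ALB was at 53.35 and otherwise between 0.48 and 0.81. The part of cell composition in the lower replication genes was not tested.

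**Figure D5:**
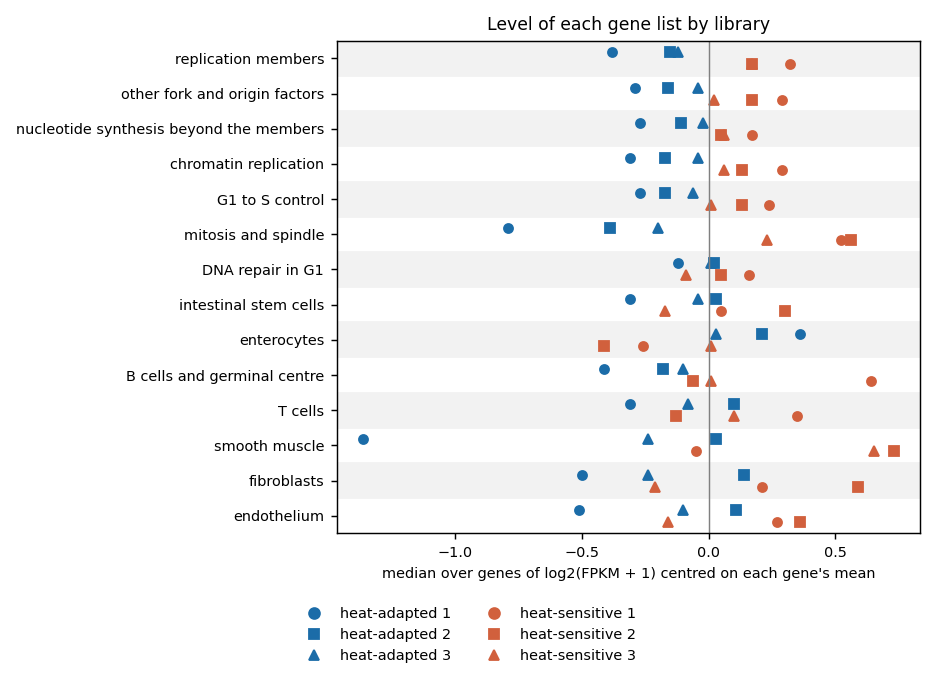
Level of each gene list in each library, as the median of log2(FPKM + 1) after centring every gene on its mean over the 6 libraries; blue symbols are heat-adapted and orange symbols heat-sensitive libraries. Replication genes lie between -0.38 and -0.12 in heat-adapted libraries and between 0.17 and 0.32 in heat-sensitive libraries. The levels of stem cell, T cell, smooth muscle, fibroblast, endothelial and DNA repair genes overlap. Those of B cell and enterocyte genes narrowly do not.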

How the data were processed

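RNA of 6 pooled jejunal mucosa samples was sequenced after poly(A) selection or ribosomal RNA removal, per the labels' protocols. Cutadapt 1.9.1, HISAT2 2.0.1, HTSeq 0.6.1, DESeq2 and build GRCg6a are named in the submitters' processing notes; the strand setting and the handling of shared reads are not stated there. The authors deposited FPKM values, rounded to 2 decimals, and read counts. The deposited read counts are estimated counts, since 13.2% to 13.7% per library are not whole. They were used only for library totals and the check of row order. Of 15675 rows with FPKM, 19 with a date for a symbol were left out. None of the tools named removes PCR copies, so the counts may hold them, and totals describe counting depth only. A count model was not used, since count rows carry no gene names.

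The 11587 genes averaging an FPKM of 1 or more entered a limma fit (version 3.58.1, R 4.3.3) of log2(FPKM + 1) (empirical Bayes with mean-variance trend, robust, 2-sided, Benjamini-Hochberg over all genes tested, threshold 0.05). The pseudocount of 1 understates differences of low genes. Labels name pools of hens but not how they were drawn, so p-values measure the spread between pools. Members and lists were chosen with earlier results of these data known. From each other list the text names up to 4 genes of smallest p, and others only as said there. In RefSeq's GRCg7b, used for neighbours only, 8 of the 43 genes overlap a protein-coding gene (ORC4, GINS1, POLA2, RFC1, LIG1, TYMS, CCNE2 and UHRF1), so their reads are uncertain there.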

Additional observations from a re-analysis of the deposited data

How the results depend on the processing

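Alternatives were a pseudocount of 0.1, no filter or a mean FPKM of at least 5, TPM, median-of-ratios and quantile scaling, a replicate block, and leaving out each library in turn. Over these 13 settings the median log2 difference of the replication genes lay between -0.50 and -0.34, and at least 37 of 41 were below 0 (29 of 30 at a mean FPKM of at least 5). TPM moved the share of all genes below 0 to 43.1%, against 58.3% in FPKM. With TPM, 14 replication genes were lower at an unadjusted p below 0.05, against 23 in FPKM, and 17 did not overlap (6.05% and 7.35% of all genes tested). Leaving out 1 library gave 13 to 21 replication genes lower at an unadjusted p below 0.05 (5.09% to 13.8% of all genes tested). With an adjusted p below 0.05 there were 0 to 2, and 6 to 64 among all genes tested.

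Signs turned in 4 genes. POLA1 was at -0.000277 with a pseudocount of 0.1 and between -0.0466 and 0.0875 over the left-out libraries. RPA1 was at 0.0783 with TPM, 0.038 with median-of-ratios scaling and between -0.157 and 0.0331 over the left-out libraries. TK1 was at 0.0575, 0.0164 and between -0.211 and 0.213 in the same settings, and ORC3 between -0.264 and 0.0197 over the left-out libraries. The cause was not tested. Deviations from the group means had correlations of -0.161, 0.11 and -0.191 between same-numbered libraries. The highest correlation, 0.339, joined heat-adapted replicate 1 and heat-sensitive replicate 3. With 3 libraries per group, these values cannot settle whether replicate numbers pair the libraries. With the replicate block, 0 replication genes passed the adjusted threshold and 17 were lower at an unadjusted p below 0.05; of all genes tested, 46 passed and 8.69% were lower at an unadjusted p below 0.05. With 3 pools per group, a p that misses the threshold does not show that values did not differ.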
